A study of Mus musculus with 8 samples.

Results

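The eosinophil-associated ribonucleases (Ear genes) were followed in livers of KKAy mice, set against those of C57BL/6J, at ages of 11 and 4 weeks. The family was taken as every probe that the scanner files name Ear1, Ear2, Ear3, Ear4, Ear6 or Ear10. That gave 5 probes for 4 of the 6 genes (1 each for Ear1, Ear3 and Ear10, 2 for Ear6), out of 41174 probes and 27745 gene names on the array; no probe carried the name Ear2 or Ear4. Total RNA had been labelled with Cy3 and hybridised to 8 Agilent arrays of a single colour. The 4 groups had 2 arrays apiece and comprised 11-week KKAy, 4-week KKAy, 11-week C57BL/6J and 4-week C57BL/6J livers. KKAy mice carry the yellow allele of agouti on the KK background and become obese and diabetic, and the labels call them diabetic, while C57BL/6J is a common inbred strain that the labels call normal. Both strains were kept on standard chow and fasted for 13.5 hours, and sex is not stated in the labels. KKAy differs from C57BL/6J in its genetic background as well as in the agouti allele, so the strain comparison is not one of agouti alone.

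Ear proteins are small secreted enzymes of the ribonuclease A superfamily and are the mouse relatives of human eosinophil cationic protein and eosinophil-derived neurotoxin. They are stored in the granules of eosinophils, and transcripts of some members are also found in tissue macrophages. The genes arose by repeated duplication on mouse chromosome 14, and many copies remain nearly identical.

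That likeness limits what a probe can be said to read. In the files' annotation, on the mm8 build, the Ear1 probe lies at chr14:42698911-42698970 and the Ear3 probe at chr14:42803050-42803108, while the 2 Ear6 probes lie at chr14:50776075-50776134 and chr14:50776184-50776243. The Ear10 probe is placed on unassembled sequence. The Ear3 and Ear10 probes each list the same 4 RefSeq transcripts, of which the files name that of Ear3 and RefSeq names those of Ear2 and Ear10, while the fourth has no gene name here. The Ear6 probe at 50776075 lists 2, and for the second of these there is no name here either. The Ear1 probe and the Ear6 probe at 50776184 list 1 each. Signal from paralogs cannot be separated, and values are therefore given per probe and belong to the gene name in the files only.

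The likeness extends upstream of the genes. RefSeq windows running from 250 bases before to 50 bases after the start were held for Ear1, Ear2, Ear6 and Ear10 and for Ear11, a relative measured here that RefSeq now names Rnase2a (build GRCm38.p6). They are shown to let the likeness of the members be seen beside a relative. Capitals mark the longest run present in all 4 windows of the members, a run of 57 bases, and the window of Ear11 does not hold it. The windows are chr14:43819590-43819889 on the minus strand for Ear1, chr14:43923547-43923846 on the minus strand for Ear10, chr14:44102404-44102703 on the plus strand for Ear2, chr14:51853518-51853817 on the plus strand for Ear6 and chr14:51256063-51256362 on the minus strand for Ear11.
Ear1: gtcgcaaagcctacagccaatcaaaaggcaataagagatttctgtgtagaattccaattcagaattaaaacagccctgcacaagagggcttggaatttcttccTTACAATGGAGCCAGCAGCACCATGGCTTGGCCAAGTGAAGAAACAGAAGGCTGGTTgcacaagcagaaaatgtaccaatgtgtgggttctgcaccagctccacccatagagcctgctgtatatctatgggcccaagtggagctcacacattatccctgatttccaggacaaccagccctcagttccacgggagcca
Ear10: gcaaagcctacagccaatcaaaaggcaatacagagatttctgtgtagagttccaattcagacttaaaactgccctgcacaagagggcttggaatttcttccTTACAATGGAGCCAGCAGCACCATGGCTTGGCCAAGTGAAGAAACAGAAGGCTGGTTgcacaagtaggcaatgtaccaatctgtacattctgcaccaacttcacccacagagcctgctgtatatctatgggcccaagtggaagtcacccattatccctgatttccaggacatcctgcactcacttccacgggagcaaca
Ear2: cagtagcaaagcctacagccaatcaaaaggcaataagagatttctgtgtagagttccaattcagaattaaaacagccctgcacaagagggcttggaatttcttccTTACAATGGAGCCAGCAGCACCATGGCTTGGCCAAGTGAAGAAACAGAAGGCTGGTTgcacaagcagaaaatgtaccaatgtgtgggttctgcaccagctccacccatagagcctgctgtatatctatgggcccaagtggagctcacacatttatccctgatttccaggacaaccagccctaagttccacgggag
Ear6: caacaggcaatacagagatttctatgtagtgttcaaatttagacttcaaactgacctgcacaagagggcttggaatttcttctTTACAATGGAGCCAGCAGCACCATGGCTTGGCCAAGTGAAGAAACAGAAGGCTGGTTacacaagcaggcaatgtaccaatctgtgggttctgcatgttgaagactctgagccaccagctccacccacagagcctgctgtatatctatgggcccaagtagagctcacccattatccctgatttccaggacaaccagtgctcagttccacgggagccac
Ear11 (Rnase2a): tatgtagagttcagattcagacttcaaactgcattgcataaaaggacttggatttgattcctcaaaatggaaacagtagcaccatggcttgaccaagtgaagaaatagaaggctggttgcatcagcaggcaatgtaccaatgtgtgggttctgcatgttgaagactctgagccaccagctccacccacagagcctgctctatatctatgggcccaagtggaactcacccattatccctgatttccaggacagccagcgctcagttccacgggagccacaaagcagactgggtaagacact

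The run was found in 4 of 32851 windows searched, all 4 of them from members. Over aligned bases the windows of Ear1 and Ear2 were 99.0% identical, and the other pairs of members were 92.2% to 93.2% identical. The window of Ear11 was 87.3% to 89.6% identical to those of the members. Its closest match was Ear6, which lies in the same gene cluster, with a shared run of 56 bases. The window of Ear5, another relative (RefSeq Rnase2b), was 92.0% to 94.1% identical to those of the members, as alike as most pairs of members, and the Ear5 probe was well above background on no array (0 of 8). In the RefSeq order of genes, Ear1, Ear10 and Ear2 neighbour one another with Ang5 and Ang6, whereas Ear6 sits in a second cluster beside Ang4 and Rnase2a. On either strand the letters CCAAT occurred in all 4 member windows and in 37.4% of all windows of the same length, and the letters GATAA in all 4 and in 25.4% of all windows. The letters TTGCNNAA, a core bound by C/EBP factors, occurred in the windows of Ear1, Ear2 and Ear10 and in 10.8% of all, and no such match lay in the window of Ear6. The windows of Ear11 and Ear5 also held all of these letters, with 1 match each, so they are not particular to the members. Such matches describe letters and are not binding sites.

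On the arrays as a whole, processed signal had its 75th percentile between 491.6 and 1241 fluorescence units, and the share of spots well above background was 56.3% to 66.7%. Levels below are given as a percent of that percentile on the same array, and no level is set against that of another probe. Testing required a probe to be well above background in 1 or more groups, on both of that group's arrays, which kept 25318 probes. The 5 Ear probes passed that filter through the C57BL/6J groups alone, so those that passed had to differ between strains. The labels do not say that the samples came from separate animals, so the spread behind the p-values is that of these samples alone and could be technical. All 11-week arrays lay on one slide and all 4-week arrays on the other, so slide cannot be told apart from age, and within a slide the strain goes with the position of the array. Scaling to spike-in controls moved the median strain difference of all probes to 0.11 at 11 weeks and 0.30 at 4 weeks, against -0.03 and 0.00, and with it the share of called probes that were higher in KKAy was 59.8% and 71.5%, against 43.9% and 40.6%. Between ages the share higher at 11 weeks was 24.8% in KKAy with that scaling, against 44.0%.

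Every Ear probe was read well above background in C57BL/6J livers, and none passed that mark in KKAy livers. All 5 were well above background on all 4 C57BL/6J arrays and on none of the 4 KKAy arrays (0 of 4), at both ages. That pattern was shared by 317 of 41174 probes (0.77%), and the opposite one held for 32 (0.0777%). The family was chosen because of this contrast, so the strain values are a description without a test. In bulk liver, fewer cells of a type cannot be told apart from less RNA in each cell. Probe sequences were not held here, and KKAy has another genetic background. Whether the probes match KKAy sequence, and whether KKAy carries the same gene copies, was not tested. Lower in KKAy therefore means lower probe signal.

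The Ear1 probe had processed signals of 10.2 and 5.21 units in KKAy at 11 weeks and 18.4 and 16.4 in KKAy at 4 weeks, against 228 and 246 in C57BL/6J at 11 weeks and 970 and 645 in C57BL/6J at 4 weeks. As a level this was 1.27% and 2.29% of the 75th percentile in KKAy at 11 and 4 weeks and 36.3% and 84.8% in C57BL/6J at 11 and 4 weeks. No C57BL/6J array came near a KKAy array, and the 4-week C57BL/6J arrays were the brightest. The log2 difference, KKAy minus C57BL/6J, was -4.83 at 11 weeks and -5.21 at 4 weeks (SE 0.23, n = 2 arrays a group). Because the KKAy signal was not well above background, the fold is a bound. Each KKAy array was taken at its dimmest probe still well above background, or at the probe's own signal where that was higher. The latter held for Ear1 on replicate 1 at 4 weeks. By that bound Ear1 was at least 13.2-fold lower in KKAy at 11 weeks and at least 32.7-fold lower at 4 weeks.

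The Ear10 probe was dim on every KKAy array, with signals of 4.21 and 3.74 units at 11 weeks and 4.37 and 5.37 at 4 weeks, against 122 and 138 in C57BL/6J at 11 weeks and 538 and 373 in C57BL/6J at 4 weeks. Its log2 difference was -4.84 at 11 weeks and -6.23 at 4 weeks (SE 0.29), with bounds of at least 7.19-fold and at least 19-fold lower in KKAy. The Ear3 probe had 4.44 and 3.97 units in KKAy at 11 weeks and 10.8 and 5.59 in KKAy at 4 weeks, against 88.2 and 85.4 in C57BL/6J at 11 weeks and 378 and 241 in C57BL/6J at 4 weeks. Here too the strains did not overlap at either age and the 4-week C57BL/6J pair was the highest. The Ear3 difference was -4.18 at 11 weeks and -4.98 at 4 weeks (SE 0.18), or at least 4.82-fold and at least 12.8-fold lower in KKAy.

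Ear6 is read by a pair of probes some bases apart, both at background in KKAy. The probe at 50776075 had 4.25 and 3.80 units in KKAy at 11 weeks and 4.93 and 6.65 in KKAy at 4 weeks, against 114 and 124 in C57BL/6J at 11 weeks and 529 and 354 in C57BL/6J at 4 weeks. The probe at 50776184 had 4.83 and 4.37 units in KKAy at 11 weeks and 5.30 and 6.33 in KKAy at 4 weeks, against 31.2 and 32.2 in C57BL/6J at 11 weeks and 87.1 and 66.4 in C57BL/6J at 4 weeks. Both separated the strains on every array. The log2 differences of the probe at 50776075 were -4.70 at 11 weeks and -5.94 at 4 weeks (SE 0.32), or at least 6.60-fold and 18.4-fold lower in KKAy. Those of the probe at 50776184 were -2.60 and -3.42 (SE 0.29), or at least 1.76-fold and 3.23-fold lower. With the KKAy side at background, the sizes of the differences are not compared between the probes.

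**Figure D1:**
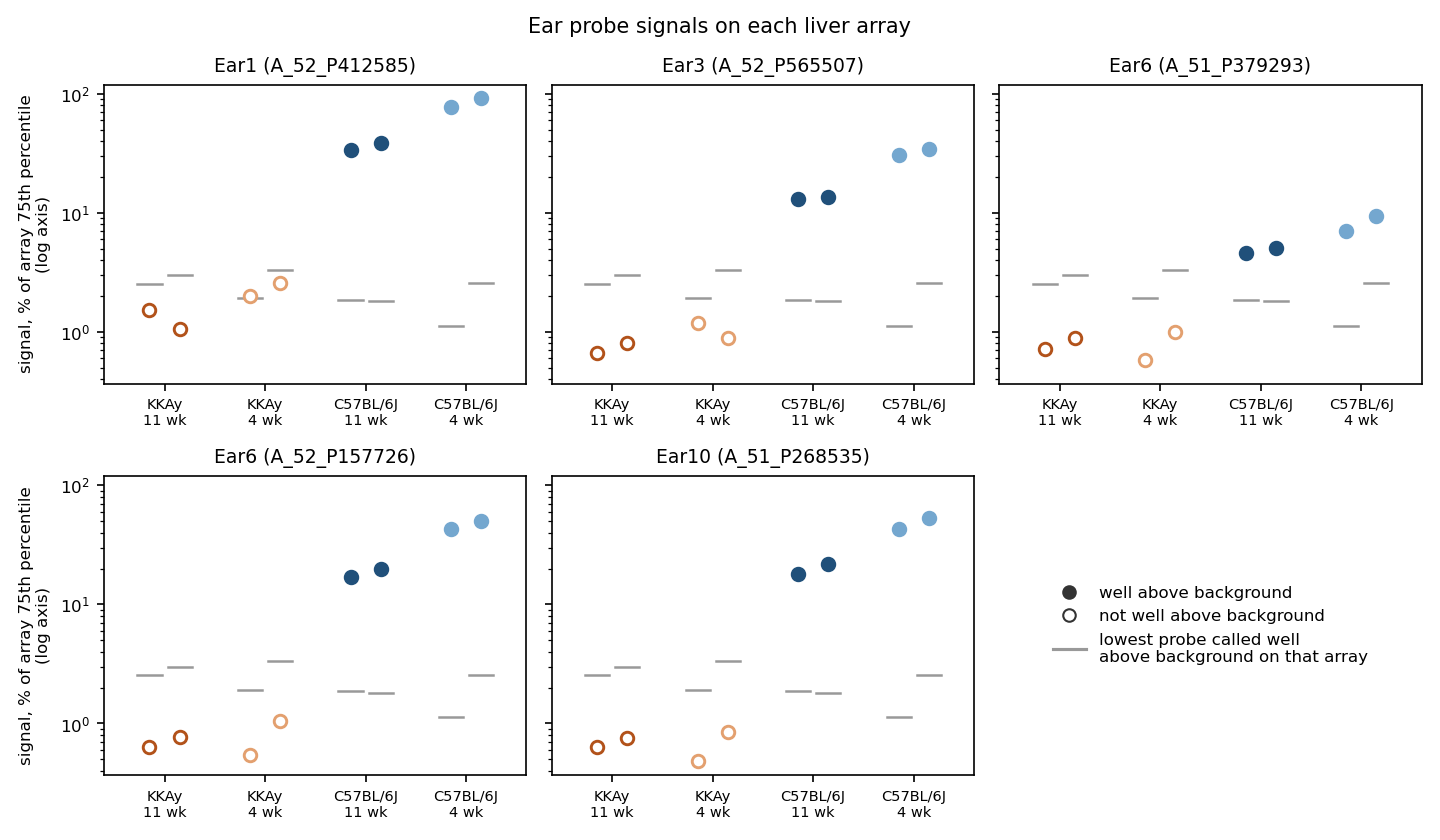
Signal of each Ear probe on each of the 8 arrays, as a percent of the array's 75th percentile on a log axis. Points are single arrays, filled where the probe was well above background and open where it was not, and grey lines mark the dimmest probe still well above background on that array. All 4 C57BL/6J points are filled and all 4 KKAy points open in each of the 5 panels.

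The groups of arrays did not overlap for any of the 5 probes, in either strain comparison. Among all probes tested, the KKAy arrays lay wholly below the C57BL/6J arrays for 30.7% at 11 weeks and 26.1% at 4 weeks. The choice of the members used this contrast, and nothing is read from the count. The choice of background correction set the size of the differences: with normexp and its offset of 50 in place of the processed signal, the differences of the 5 probes lay between -1.86 and -0.35 at 11 weeks and between -3.05 and -0.56 at 4 weeks. Their direction held under each alternative tried.

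**Figure D2:**
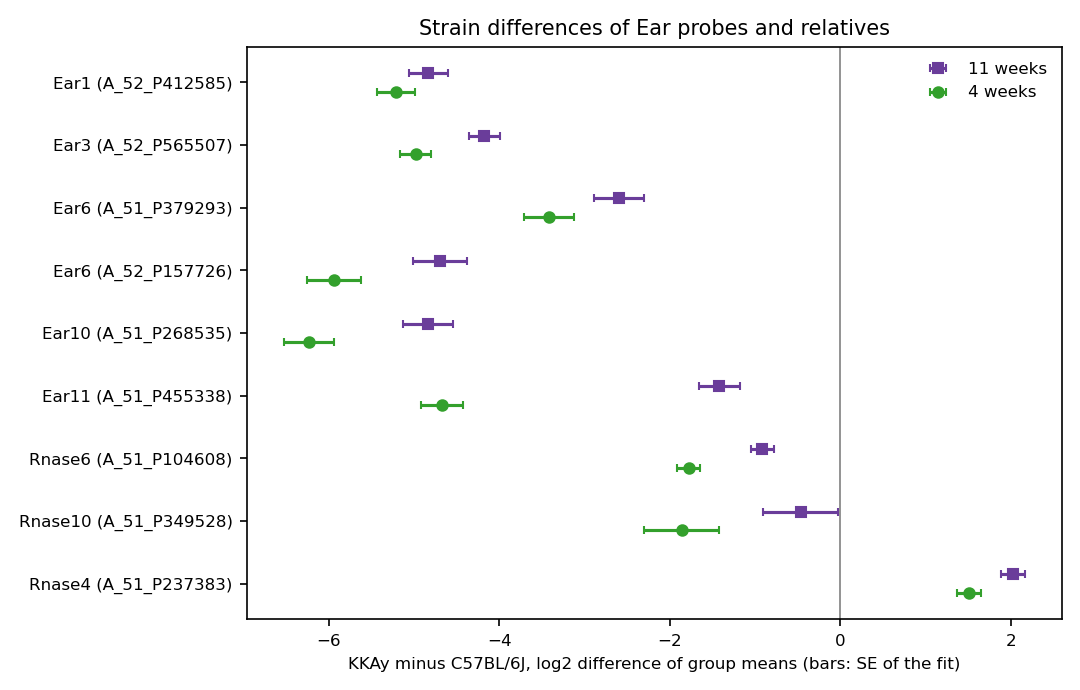
Log2 difference of group means, KKAy minus C57BL/6J, at 11 weeks (squares) and 4 weeks (circles) for the 5 Ear probes and 4 relatives, with the SE of the fit (n = 2 arrays a group). The Ear probes lie between -2.60 and -4.84 at 11 weeks and between -3.42 and -6.23 at 4 weeks; Ear11 lies at -1.42 and -4.68, and Rnase4 lies above 0 at both ages.

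The 5 probes followed one another closely over the 8 arrays, with Pearson r between 0.979 and 0.999 for the 10 pairs of probes. The probes share arrays, labelled extracts and possibly transcripts, and the arrays form 2 clusters by strain, so these correlations describe likeness only. The Ear10 probe and the Ear6 probe at 50776075 were the most alike (0.999).

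Within C57BL/6J, where the probes could be measured at both ages, Ear signal was lower at 11 weeks than at 4 weeks. The Ear1 probe stood at 33.8% and 39.0% of the 75th percentile at 11 weeks, against 78.1% and 92.0% at 4 weeks, and fell by 1.22 on the log2 scale (SE 0.23, limma adjusted p = 0.032). The Ear3 probe averaged 13.3% at 11 weeks and 32.4% at 4 weeks, and fell by 1.29 (SE 0.18, limma adjusted p = 0.0131). These 2 of the 5 probes passed the threshold of 0.05, where 5.27% of all probes tested were called lower at 11 weeks.

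The other 3 probes lay lower in both 11-week arrays without passing it. The Ear10 probe had 18.0% and 21.8% at 11 weeks, against 43.3% and 53.2% at 4 weeks, a log2 difference of -1.28 (SE 0.29, limma adjusted p = 0.0614). The Ear6 probe at 50776075 had 16.9% and 19.6%, against 42.6% and 50.6%, a difference of -1.35 (SE 0.32, limma adjusted p = 0.0669). For the Ear6 probe at 50776184 the values were 4.62% and 5.10% at 11 weeks and 7.02% and 9.48% at 4 weeks, a difference of -0.75 (SE 0.29, limma adjusted p = 0.232). All 5 thus had no overlap between ages, as had 22.3% of all probes tested in that direction.

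The age calls rest on few arrays. Leaving out any one C57BL/6J array took the limma adjusted p of Ear1 to between 0.112 and 0.203 and that of Ear3 to between 0.0653 and 0.106, with the same direction. The call of Ear3 was also lost with normexp (difference -0.78, adjusted p = 0.121) and with quantile normalization (adjusted p = 0.0992), and that of Ear1 with no filter on dim probes (adjusted p = 0.0884). Quantile normalization in turn brought Ear10 and the Ear6 probe at 50776075 past the threshold (adjusted p = 0.00904 and adjusted p = 0.0395), as did a fit to the 4 C57BL/6J arrays alone (adjusted p = 0.0354 and adjusted p = 0.0245).

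In KKAy none of the 5 probes was well above background at either age, so no fold between ages is given. Over the 5 probes the levels ran from 0.631% to 1.52% of the 75th percentile on the 11-week arrays and from 0.480% to 2.59% on the 4-week arrays. The KKAy arrays of Ear1 and Ear3 lay lower at 11 weeks without overlap, as did 25.9% of all probes tested. Neither was called (limma adjusted p = 0.0538 and adjusted p = 0.129). The order of group means for Ear1 and Ear3 from the top was 4-week C57BL/6J, 11-week C57BL/6J, and then both KKAy groups, which were not well above background. For Ear6 and Ear10 the order was the same, but the step between the C57BL/6J ages did not pass the test in the main fit.

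Ear11, an attractant of macrophages in mice that is induced in type 2 immune responses, was measured on every array, so that here both strains had a level. Its probe had signals of 132 and 135 units in KKAy at 11 weeks and 44.0 and 37.5 in KKAy at 4 weeks, against 370 and 450 in C57BL/6J at 11 weeks and 1481 and 1103 in C57BL/6J at 4 weeks. Like the Ear probes it was lower in KKAy on every array at both ages. Its level relative to the 75th percentile averaged 23.3% in KKAy and 62.4% in C57BL/6J at 11 weeks, a log2 difference of -1.42 (SE 0.24, limma adjusted p = 0.0113). At 4 weeks it averaged 5.36% in KKAy and 137% in C57BL/6J, a difference of -4.68 (SE 0.24, limma adjusted p = 0.000317). Among genes represented by their brightest probe, 11.6% were called lower in KKAy at 11 weeks and 8.72% at 4 weeks.

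With age, Ear11 took opposite directions in the 2 strains. In KKAy it was higher at 11 weeks than at 4 weeks by 2.12 (SE 0.24, limma adjusted p = 0.0042), and in C57BL/6J it lay lower by -1.14 (SE 0.24, limma adjusted p = 0.0513), which missed the threshold. The strain difference at 11 weeks minus that at 4 weeks was 3.26 (SE 0.35, limma adjusted p = 0.0122), and 3.28% of genes were called in that interaction. Without KKAy replicate 1 or 2 at 4 weeks, C57BL/6J replicate 1 or 2 at 11 weeks, or C57BL/6J replicate 2 at 4 weeks, its adjusted p lay between 0.0501 and 0.0714, with values of 3.06 to 3.45. With no filter on dim probes it was 0.0506. Normexp made the Ear11 values smaller: 2.18 for the interaction, -3.23 between strains at 4 weeks and 1.18 between ages in KKAy, each still called. The strain difference at 11 weeks was not called without C57BL/6J replicate 2 of that age (-1.23, adjusted p = 0.0768). The same interaction was not tested for the 5 Ear probes, which were chosen on the strain differences.

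**Figure D3:**
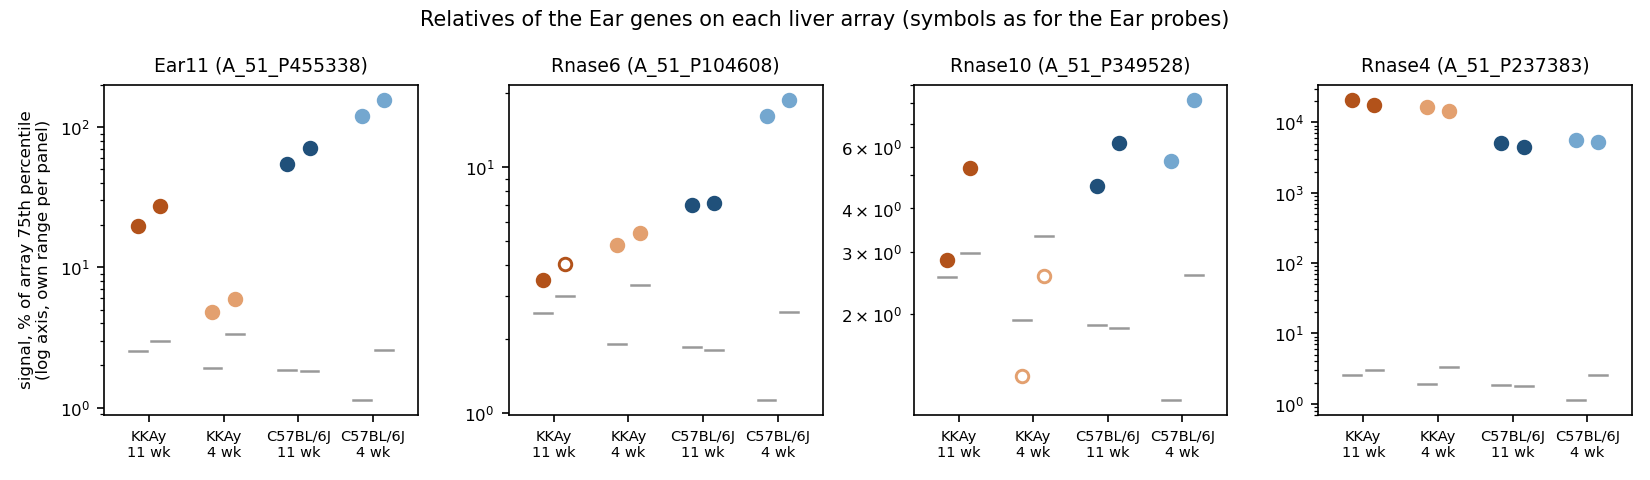
Signal of Ear11, Rnase6, Rnase10 and Rnase4 on each array as a percent of the array's 75th percentile, on log axes with a range of their own in each panel; open points were not well above background and grey lines mark the lowest signal well above background on that array. Ear11 averages 23.3% and 5.36% in KKAy at 11 and 4 weeks and 62.4% and 137% in C57BL/6J at 11 and 4 weeks, whereas Rnase4 is higher in KKAy on every array.

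Of 27 listed ribonuclease relatives and the inhibitor, 15 had a probe and 12 were tested by their brightest probe. At 11 weeks 2 were higher and 2 lower in KKAy, with a median of 0.10 against -0.01 for all genes. At 4 weeks 1 was higher and 3 lower, with a median of -0.01 against 0.02. Higher calls were made for 9.68% of genes at 11 weeks and 6.27% at 4 weeks.

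Rnase4, a secreted ribonuclease of hepatocytes that shares its promoters with angiogenin, was higher in KKAy. Its signal reached 140703 and 88009.6 units in KKAy at 11 weeks and 151921 and 92073.2 in KKAy at 4 weeks, against 34347 and 28318.8 in C57BL/6J at 11 weeks and 70486.1 and 37050.0 in C57BL/6J at 4 weeks. The strains were apart in level at each age, by 2.03 at 11 weeks (SE 0.14, limma adjusted p = 0.00051) and 1.51 at 4 weeks (SE 0.14, limma adjusted p = 0.00173). Its other probe gave 1.87 and 1.29. Rnase6, a ribonuclease with antimicrobial activity, was lower in KKAy by -0.92 at 11 weeks (limma adjusted p = 0.00676) and -1.78 at 4 weeks (limma adjusted p = 0.000872, SE 0.14 at both ages). In C57BL/6J it fell with age by 1.31 (limma adjusted p = 0.00479), and 1 of its 2 KKAy arrays at 11 weeks was not well above background.

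Rnase10, which is known from the mouse epididymis, was not well above background in KKAy at 4 weeks and was at least 2.65-fold lower there than in C57BL/6J (limma adjusted p = 0.0416). Rnaset2b, an acid ribonuclease gene, was higher in KKAy at 11 weeks on its brightest probe, by 0.70 (SE 0.18, limma adjusted p = 0.0432), while its other probe was lower by -0.54 (SE 0.11, limma adjusted p = 0.0203), so its probes disagreed. At 4 weeks that other probe was lower by -1.28 (SE 0.11, limma adjusted p = 0.00136), and the brightest was not called (-0.09, limma adjusted p = 0.832). The angiogenin genes Ang1, Ang2 and Ang4, the ribonuclease inhibitor gene Rnh1, Rnase1 and Rnaset2a were not called between strains at either age. Ang4, which neighbours Ear11 and Ear6 in the RefSeq order, had differences of 0.09 and 0.20 on its brightest probe. Ear14, Ear5 and Rnase9 were not well above background on both arrays of any group.

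Apart from Ccr3, genes that define eosinophils were not well above background on both arrays of any group. Prg2 and Epx, which encode the major basic protein and the peroxidase of eosinophil granules, and the receptor gene Il5ra were well above background on none of the 8 arrays (0 of 8), with levels of at most 1.13%, 0.817% and 1.02% of the 75th percentile. Siglecf, a surface lectin of eosinophils and alveolar macrophages, was above on 1 array. Prg3, a homologue of Prg2, was above on 3 arrays, 1 in each of 3 groups, and on no KKAy array at 11 weeks. Ccr3, the eotaxin receptor gene, was the one defining gene that could be tested, on 1 of its 2 probes. The other probe was well above background on no array, with at most 2.06% of the 75th percentile. The tested probe had 4.50% and 5.27% of the 75th percentile in KKAy at 11 weeks and 13.6% and 14.4% in KKAy at 4 weeks, against 2.96% and 3.52% in C57BL/6J at 11 weeks and 4.86% and 6.53% in C57BL/6J at 4 weeks. It was thus higher in KKAy, opposite to the Ear probes, by 1.31 at 4 weeks (SE 0.18, limma adjusted p = 0.00688) and by 0.59 at 11 weeks (SE 0.18, limma adjusted p = 0.0734, not called).

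Of the 16 listed eosinophil genes 6 were tested. At 11 weeks none was higher (0) and 1 was lower in KKAy, namely Gata2 by -0.71 (SE 0.16, limma adjusted p = 0.0297), a transcription factor gene of blood progenitors and mast cells. At 4 weeks Ccr3 was higher and Csf2ra, a receptor chain for granulocyte-macrophage colony-stimulating factor, was lower by -1.11 (SE 0.28, limma adjusted p = 0.0498). The list's summed signal ran from 287% to 346% of the 75th percentile in KKAy at 11 weeks and from 475% to 565% in KKAy at 4 weeks, against 369% to 433% in C57BL/6J at 11 weeks and 592% to 734% in C57BL/6J at 4 weeks. In C57BL/6J 2 of the 6 were lower at 11 weeks. The shares over all genes were 9.68% higher and 11.6% lower in KKAy at 11 weeks, and 6.27% and 8.72% at 4 weeks. Between ages in C57BL/6J 5.82% of genes were called lower at 11 weeks. With 6 genes tested, nothing is read from the strain counts.

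Of 22 genes that recruit eosinophils or belong to type 2 responses 13 were tested, of which 2 were higher and 3 lower in KKAy at 11 weeks and 1 was lower at 4 weeks. Over all genes the shares were 9.68% and 11.6% at 11 weeks and 8.72% lower at 4 weeks, so these counts lie near the background. Ccl24, the gene of the chemokine eotaxin-2, was lower in KKAy at both ages, by -1.25 at 11 weeks (SE 0.24, limma adjusted p = 0.016) and by -1.57 at 4 weeks (SE 0.24, limma adjusted p = 0.00907). In C57BL/6J it fell with age by 2.09 (limma adjusted p = 0.00615), and in KKAy it fell by 1.77 (limma adjusted p = 0.00686). Chi3l4, a chitinase-like gene of type 2 responses, was at least 4.18-fold higher in KKAy at 11 weeks (limma adjusted p = 0.00251). KKAy at 11 weeks was the one group with both arrays well above background, and the probe entered the test through it. Retnla, a gene of alternatively activated macrophages, was in like manner well above background in C57BL/6J at 11 weeks alone. Its bound there was at least 1.04-fold lower in KKAy (limma adjusted p = 0.00576), which leaves its size unmeasured.

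Many markers of macrophages and lymphocytes were called lower in KKAy at each age and lower at 11 weeks in C57BL/6J, as counted here. Of 20 Kupffer cell and macrophage markers tested (of 23 listed), 7 were lower in KKAy at 11 weeks and 12 at 4 weeks, with medians of -0.44 and -0.92. Among all genes 11.6% were called lower in KKAy at 11 weeks and 8.72% at 4 weeks. In C57BL/6J 14 of the 20 were lower at 11 weeks, with a median of -1.05 against 0.07 for all genes, where 5.82% of genes were called lower. Their summed signal ran from 9282% to 11560% in KKAy at 11 weeks and 12246% to 14858% in KKAy at 4 weeks, against 12065% to 13805% in C57BL/6J at 11 weeks and 23663% to 28392% in C57BL/6J at 4 weeks. Defining genes stayed well above background on every array, such as Csf1r, the receptor of macrophage growth factor, lower in KKAy by -0.89 at 11 weeks and -1.12 at 4 weeks (SE 0.12, limma adjusted p = 0.00507 and adjusted p = 0.00286), and Cd5l, lower by -0.84 and -1.61 (SE 0.16, limma adjusted p = 0.0166 and adjusted p = 0.00224).

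Of 15 lymphocyte and natural killer markers tested (of 16), 7 were lower in KKAy at 11 weeks, 9 at 4 weeks, and 9 fell with age in C57BL/6J. Their summed signal ran from 104% to 109% in KKAy at 11 weeks and 173% to 185% in KKAy at 4 weeks, against 156% to 160% in C57BL/6J at 11 weeks and 382% to 417% in C57BL/6J at 4 weeks. Gzmb, a granzyme of killer cells, was lower in KKAy by -1.36 and -1.95 (SE 0.10, limma adjusted p = 0.000737 and adjusted p = 0.000344), with 1 of the 2 KKAy arrays at 11 weeks not well above background. Of 12 monocyte markers, 1 was higher and 1 lower in KKAy at 11 weeks, and 1 was higher and 4 lower at 4 weeks. The shares over all genes were 9.68% higher and 11.6% lower in KKAy at 11 weeks, and 6.27% and 8.72% at 4 weeks. With age in C57BL/6J 5.82% were called lower. The order of groups in the lymphocyte sum was not that of the Ear probes. In KKAy at 4 weeks none of the 5 probes was well above background, while the lymphocyte sum lay above that in C57BL/6J at 11 weeks. The macrophage sums of these same groups overlapped, so their order is not told apart. Single genes could differ from the sums. Gzma, of the lymphocyte list and named for its strain difference, averaged 43.2% in C57BL/6J at 4 weeks and 4.73% at 11 weeks. It was well above background on both C57BL/6J arrays and on no KKAy array at each age. What part these cells have in the Ear signal was not tested.

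Over all genes 9.68% were called higher and 11.6% lower at 11 weeks, and 6.27% higher and 8.72% lower at 4 weeks, against which the counts of neutrophil and erythroid markers stand. Of 8 neutrophil markers tested (of 16) 3 were higher and none (0) lower in KKAy at 11 weeks, among them S100a9, a calcium-binding protein, by 2.31 (SE 0.28, limma adjusted p = 0.00321), while at 4 weeks 1 was higher and 1 lower. Of 6 erythroid markers tested (of 11) 3 were higher at 11 weeks and 4 at 4 weeks, among them Klf1, by 1.42 and 1.23 (SE 0.21, limma adjusted p = 0.00648 and adjusted p = 0.0136). Of 4 basophil and mast cell markers tested (of 10) only Cma1, a mast cell chymase gene, was called, at 11 weeks. It was not well above background on any KKAy array (0 of 4) and both arrays were above it in C57BL/6J at 11 weeks alone, so no size is given. Hepatocyte markers were bright on every array. Of 10 of them tested, whose summed signal ran from 188555% to 270854% over all arrays, 1 was higher and 3 lower in KKAy at 11 weeks and 1 was lower at 4 weeks.

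**Figure D4:**
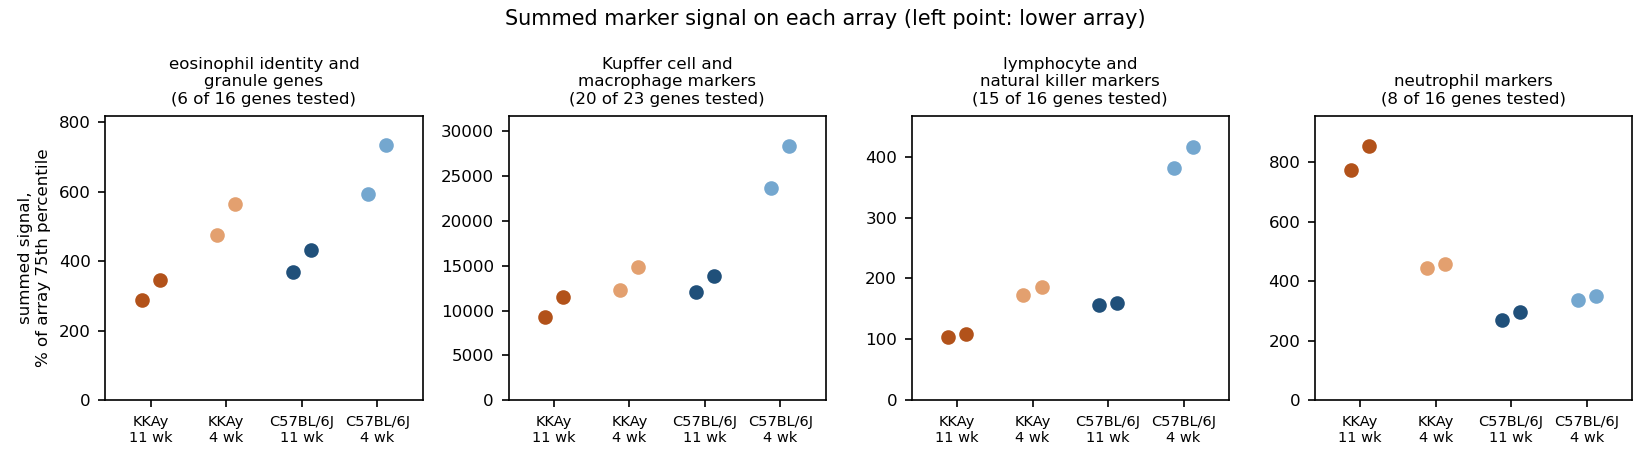
Summed signal of the tested genes of 4 marker lists on each array, as a percent of the array's 75th percentile, with the lower array of each pair on the left and each axis starting at 0. Macrophage and lymphocyte sums are highest in C57BL/6J at 4 weeks, where the Ear probes are also brightest, while the neutrophil sum is highest in KKAy at 11 weeks (775% to 855%).

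Tested genes near the Ear6 probes went in both directions between strains, while near Ear1 and Ear3 too few probes were tested to read a pattern. Within 500 kb of the Ear1 and Ear3 probes on mm8, 1 probe was tested, for EG630952, with strain differences of 0.12 at 11 weeks and 0.16 at 4 weeks that were not called (limma adjusted p = 0.647 and adjusted p = 0.587). Within 500 kb of the Ear6 probes 26 probes of 17 genes were tested, with Ear11 of the same cluster outside that window. At 11 weeks 5 of these probes were higher and 4 lower in KKAy, and at 4 weeks 4 were higher and 3 lower. Over all probes 9.26% were higher and 11.8% lower at 11 weeks, and 5.89% and 8.62% at 4 weeks. The differences of the 26 probes ran from -2.95 to 1.04 and from -2.67 to 1.25. The largest falls belonged to Rpgrip1, a ciliary protein gene (-2.95 and -2.67), and Sall2, a zinc finger transcription factor gene (-2.30 and -1.73).

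The 8 genes whose level ran most like the mean of the 5 Ear probes over the 8 arrays were Rnf125, Spink5, Cpn2, Plekhc1, Gcnt1, Cth, Gpr110 and Sbsn, with Pearson r from 0.990 to 0.997. The arrays form 2 clusters by strain, so this measure mostly reads the strain split and covers differences of very unequal size. Gpr110, an adhesion receptor gene, Gcnt1, a glycosyltransferase gene, and Spink5, a protease inhibitor gene, were also not well above background in KKAy. They were at least 14.7-fold, 3.14-fold and 2.33-fold lower there at 11 weeks and at least 22.2-fold, 8.49-fold and 5.63-fold lower at 4 weeks. In C57BL/6J Gcnt1 fell with age by 1.31 (SE 0.22). The 8 genes were picked for running like the Ear probes on these same arrays, so their values are a description without a test. Rnf125, a ubiquitin ligase gene, was lower in KKAy by -0.93 and -1.04 (SE 0.10), and Cth, which makes cysteine from cystathionine, by -0.56 and -0.65 (SE 0.10). The differences at 11 and 4 weeks were smaller for Cpn2 (-0.21 and -0.27) and Plekhc1 (-0.29 and -0.38, SE 0.09 for both genes).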

How the data were processed

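The deposited intensity of each spot came from Agilent Feature Extraction 9.5.1.1, per the file headers, with background subtracted and with surrogates for the dimmest signals. The deposited value table holds log2 values that equal the log2 processed signal minus a constant per array, within 0.001 (100% of probes compared); its 75th percentile lies at about 0, with no centring of genes and column medians of -3.96 to -3.67; it served as an alternative. Repeated spots were averaged, control spots and outlier flags (59 to 89 spots per array) were left out, and each array's 75th percentile was subtracted from the log2 of its processed signal. Group means of all 8 arrays were fitted in R 4.3.3 using limma 3.58.1 (4 residual and 1.94 prior degrees of freedom), with Benjamini-Hochberg adjustment over the 25318 probes tested and a threshold of 0.05. A gene (17107 in all) was read by its brightest tested probe. The bounds use, per array, the dimmest probe still well above background, or the probe's own signal where that was higher.

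Samples were grouped by strain, age and replicate number as the labels give them. Depth does not apply; the 2 arrays a group limit the precision. Named were every Ear probe, every tested relative (except an item not reported here), up to 3 called genes per list and age, defining eosinophil genes, and the 8 most alike genes. The members and the 10 lists were chosen with earlier results of these data known. The fit was checked on simulated data. No column of the value table belonged to no sample (0 such columns). Promoter windows came from RefSeq (GRCm38.p6) and were aligned with Biopython 1.88; 17 alternative settings were run.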

Additional observations from a re-analysis of the deposited data

Results flagged for a closer look

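The strain difference at 11 weeks minus that at 4 weeks passed a test for 6 of the genes named, by limma with the interaction as a contrast, among 735 of 25318 probes (2.9%) called for it. Genes of the marker lists were named for a large strain difference at either age, which favours such a result. The 6 are therefore not read against that share. For Ear11 it was 3.26 on the log2 scale (SE 0.35, adjusted p = 0.0122). Among type 2 genes, Chi3l4 had 2.42 (SE 0.34, adjusted p = 0.0269), but KKAy at 11 weeks was its one group with both arrays well above background, so the size is not a measured one. The granzyme gene Gzma of killer cells had 2.41 (SE 0.29, adjusted p = 0.0176), but KKAy was not well above background at either age, so this value holds background on the KKAy side and its size is not a measured one either. The neutrophil gene S100a8 had 1.64 (SE 0.22, adjusted p = 0.0232) and the erythroid gene Alas2, of heme synthesis, had 1.46 (SE 0.23, adjusted p = 0.034). The macrophage receptor gene Marco had -3.12 (SE 0.51, adjusted p = 0.0393): it averaged 20.9% of the 75th percentile in KKAy and 642% in C57BL/6J at 11 weeks, and 616% in KKAy and 2177% in C57BL/6J at 4 weeks. Each strain difference was taken within 1 slide, and the ages lay on different slides.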

How the results depend on the processing

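The main settings called 5336 probes between strains at 11 weeks, 3673 at 4 weeks, and 4340 and 1764 between ages in KKAy and C57BL/6J. With normexp background correction the counts were 3383 at 11 weeks, 2538 between ages in KKAy and 808 in C57BL/6J. With no filter on dim probes they were 2990 at 11 weeks, 2104 at 4 weeks, 1851 between ages in KKAy and 861 in C57BL/6J. With the 4 arrays of a comparison alone they were 2882, 1978 and 757 for the strain comparisons at 11 and 4 weeks and the ages in KKAy. Leaving out 1 array at a time gave 2031 to 4446 at 11 weeks, 1771 to 3638 at 4 weeks, 1689 to 3067 between ages in KKAy and 450 to 1629 in C57BL/6J. Same-numbered arrays deviated together (correlations 0.558 to 0.681 over 6 pairs of groups). Within a strain they also held the same position on both slides, and replicate 1 had the higher 75th percentile in every group. With 2 numbers a group and no label on pairing, what else they share is not known. With the replicate number as a block the counts were 13639, 10649, 13055 and 8040, and Ear10 and both Ear6 probes passed between ages in C57BL/6J (adjusted p = 0.0061, adjusted p = 0.0105 and adjusted p = 0.0259). Of 158 alternative values for the strain differences of Ear probes, none was above 0 (highest -0.35), and 16 moved by more than the spread between arrays, 10 of them with normexp. Cma1 at 11 weeks was 0.026 with normexp, against -1.40 with KKAy at background, and the cause was not tested; no other of the 61 tested differences of other genes that were called turned. Of 1010 alternative values for these 61, however, 201 lost the call, and of 340 alternative counts over the gene lists 84 were lower and 19 higher by over 1.5 times. Probes above background on all arrays, as a setting, hold no Ear probe. Dim signal limits the KKAy side throughout.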
